A study of Homo sapiens with 2 samples.

Results

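The clustered protocadherin genes were examined in H9 cells: the 53 protein-coding genes on chromosome 5 whose symbols start with PCDHA, PCDHB or PCDHG, of 19126 autosomal protein-coding genes in the RefSeq table. They lie in 3 arrays on the plus strand between 140786140 and 141512975 (hg38). In order along the chromosome these are 13 variable alpha genes, 16 beta genes and 19 variable gamma genes, of which 12 are of the A kind (PCDHGA) and 7 of the B kind (PCDHGB). The 5 C-type genes, PCDHAC1 and PCDHAC2 at the end of the alpha array and PCDHGC3, PCDHGC4 and PCDHGC5 at the end of the gamma array, were kept apart. The rule for a member uses its symbol and position and no measured value.

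Clustered protocadherins are cell-surface adhesion molecules that bind to identical molecules on neighbouring cells, and in the nervous system each neuron uses its own mixture of them as a mark of identity. Every variable gene has a promoter and a large first exon of its own that encodes the extracellular part; in the alpha and gamma arrays this exon is spliced to shared constant exons, whereas the beta genes have no constant exons. Most of these promoters carry a conserved element around the letters CGCT, which the insulator protein CTCF can bind together with cohesin, and the variable alpha exons carry a further CTCF site inside the exon. DNA methylation of a promoter is known to go with silence of its gene, and the C-type genes are known to be used more steadily than the variable ones.

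H9, an established human embryonic stem cell line, was grown on Matrigel in mTeSR medium and dissociated with Accutase for the assay. In ATAC-Me a transposase cuts open chromatin and tags the fragments, whose unmethylated cytosines are then converted, so that access and methylation are read from the same fragments. There was 1 group of undifferentiated, untreated cells with 2 replicates and no control group, so every comparison is between genes or windows of the same libraries. The replicates held 28475863 and 51406146 reads over autosomal CpGs and covered 31.6% and 59.0% of the 27852739 CpGs listed, and the authors' list for the group held 46980 peaks. The labels do not tell whether the replicates were separate cultures, and the SD between them may be technical. Of the 6 pluripotency markers with enough reads, 5 had starts methylated at 0.685% to 1.47% and a peak; DPPA4, at 38.5% ± 25 (SD, n = 2), had none. Most genes had such starts, as the shares over all genes below show, and so did the neural markers PAX6, SOX1 and NEUROG2, at 0.367% to 1.06% with a peak each, while TUBB3 stood at 42.7% ± 0.145 and KRT5, a marker of epithelia, at 88.3% ± 4.94, both without a peak.

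The methylation of a window is its methylated CpG reads over all its CpG reads, in percent, taken in each replicate and then averaged. The start window reached 500 bp to either side of the gene's lower coordinate, and the exon body ran over bases 500 to 2500 after it. A window counted as measured with at least 20 reads in each replicate. This left 32 of the 53 starts: 4 of 5 C-type, 9 of 13 alpha, 8 of 16 beta and 11 of 19 gamma genes. The other 21 starts had too few reads, and since reads were fewer at methylated starts, the measured ones are not a fair sample of the family.

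The starts of the clustered protocadherins were far more often methylated in these stem cells than those of other genes. The median start was methylated at 28.2% ± 2.98 (SD, n = 2) over the 32 measured members, against 1.19% ± 0.69 over the 11231 measured genes. Only 10 of the 32 members, or 31.2%, lay under 20% in both replicates, where 90.7% of all measured genes did. Another 5, or 15.6%, lay over 80% in both replicates, against 2.65% of all genes. The remaining 17 lay between these limits or on different sides of one. The gap held against genes of like CpG content: of 2450 other genes with 14 to 53 CpGs in the window, the span of the variable members, 70.5% lay under 20% and 7.71% over 80%, with a median of 3.47% ± 0.813. A value between the limits can arise from CpGs, alleles or cells that differ, which cannot be told apart in tables of single CpGs.

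**Figure D1:**
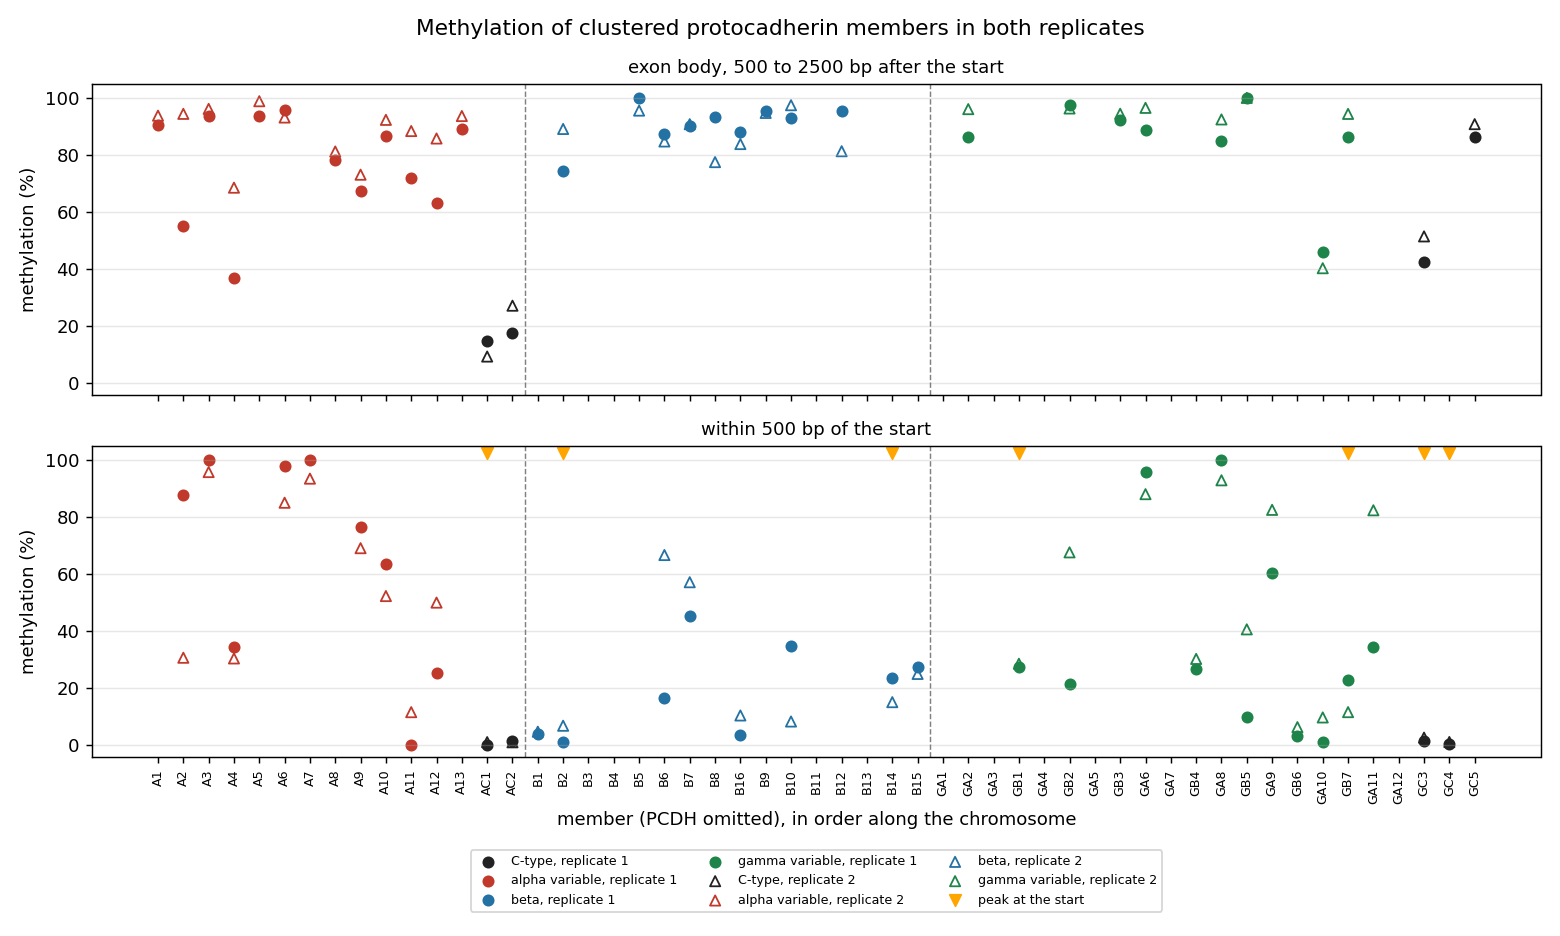
Methylation of each member in array order, with the exon body in the upper panel and the start in the lower panel; circles are replicate 1, triangles replicate 2, and windows with fewer than 20 reads in either replicate are left out. Orange marks show the 7 members with a peak, the dashed lines part the arrays, and the 4 measured C-type starts lie at the bottom while variable starts run over the whole axis.

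The C-type genes stood apart from the variable ones. Their 4 measured starts had a median of 1.06% ± 0.0949, against 31.5% ± 5.85 for the 28 measured variable starts, a difference of -30.5 ± 5.75 points. PCDHAC1 had 0 methylated of 871 reads in replicate 1, which allows up to 0.344%, and 1.10% of 1359 reads in replicate 2. PCDHAC2 was methylated at 1.56% of 320 and 1.05% of 477 reads, and PCDHGC3 at 1.67% of 360 and 2.68% of 485 reads. PCDHGC4 stood at 0.420% of 476 and 1.15% of 523 reads. These 4 were therefore all but free of methylation in each replicate, with Wilson 95% intervals that ended at 4.53% or below. PCDHGC5, the last promoter of the cluster and the poorest in CpGs of the C-type genes, was unlike them: its start had 0 reads in replicate 1 and 73.9% of 23 reads in replicate 2, and its first exon was methylated at 86.4% and 90.1%. With 2 replicates an exact two-sided sign-flip test could not go below p = 0.5, so the differences are set against their SD only.

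A C-type and a variable promoter are shown by the 250 bases before the starts of PCDHAC1 (chr5:140926049-140926298) and PCDHA7 (chr5:140834019-140834268), taken from RefSeq promoters of GRCh38.p14 on the plus strand, 5′ to 3′, with every CpG in capitals. PCDHAC1 had 18 CpGs there and PCDHA7, which was among the most methylated starts, had 6. PCDHAC1 is an extreme case, with 78 CpGs within 500 bp of the start, the most of any member. PCDHGC3 and PCDHGC4 had 50 and 51, within the range of 14 to 53 of the variable genes, and PCDHGC5 had 14. PCDHA7 had 36, against a median of 32.5 over the variable genes, so it was not poor in CpGs among them.
PCDHAC1: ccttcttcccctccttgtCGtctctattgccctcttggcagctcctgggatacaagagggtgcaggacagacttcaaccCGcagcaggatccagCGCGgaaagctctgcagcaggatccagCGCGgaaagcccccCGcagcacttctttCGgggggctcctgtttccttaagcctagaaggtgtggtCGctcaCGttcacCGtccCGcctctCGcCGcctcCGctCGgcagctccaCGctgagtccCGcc
PCDHA7: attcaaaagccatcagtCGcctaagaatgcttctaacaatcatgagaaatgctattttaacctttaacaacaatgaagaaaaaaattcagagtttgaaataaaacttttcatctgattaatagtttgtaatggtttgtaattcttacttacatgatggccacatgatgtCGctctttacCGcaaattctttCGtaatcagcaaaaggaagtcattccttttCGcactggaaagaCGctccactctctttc

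Among the variable genes the arrays differed in level. The median start was methylated at 64.4% ± 17.1 in the alpha array, 33.7% ± 9.79 in the gamma array and 16.4% ± 5.13 in the beta array. Alpha exceeded beta by 48.0 ± 12 points, and gamma exceeded beta by 17.3 ± 14.9 points, little more than its SD. Alpha and gamma differed by 30.7 ± 26.9 points, also barely past the SD. These levels depended on which starts were deep enough. With a minimum of 50 reads the medians were 32.6% in alpha, 17.2% in gamma and 6.25% in beta genes, and with replicate 2 alone, which measured 49 members, they were 82.6%, 82.4% and 34.6% in the same order. Beta was the lowest of the 3 under each of these settings.

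In the alpha array, PCDHA11 was the only one of the 9 measured variable genes with a start under 20% in both replicates. It had 0 methylated of 74 reads in replicate 1, which allows up to 4.05%, and 11.6% of 112 reads in replicate 2. Next came PCDHA4, with 34.6% of 107 and 30.4% of 115 reads, and PCDHA12, with 25.5% of 51 and 50% of 78 reads. At the other end, PCDHA3 was methylated at 100% of 20 and 95.7% of 47 reads, PCDHA7 at 100% of 27 and 93.4% of 61 reads, and PCDHA6 at 97.7% of 44 and 85.0% of 60 reads. The intervals of PCDHA11 and of these 3 did not overlap in either replicate. These genes were picked as the lowest and highest, however, and the intervals cover counting error only. The measured starts of this array spanned most of the scale, and no alpha variable start had a peak.

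In the beta array 3 starts were low in both replicates. PCDHB2 was methylated at 1.03% of 194 and 6.85% of 248 reads, PCDHB1 at 4.0% of 100 and 4.76% of 105 reads, and PCDHB16 at 3.70% of 81 and 10.4% of 67 reads. PCDHB14, which has a peak, was at 23.4% of 47 and 15.1% of 86 reads. The highest of the 8 measured were PCDHB7, with 45.2% of 31 and 57.1% of 21 reads, PCDHB6, with 16.7% of 30 and 66.7% of 30 reads, and PCDHB15, with 27.3% of 88 and 25% of 92 reads. None was over 80% in both replicates, but 8 beta starts had too few reads to be placed, and PCDHB6 rests on replicates that disagree by 50 points.

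In the gamma array the lowest starts were 3 neighbours. PCDHGB6 was methylated at 3.23% of 217 and 6.36% of 220 reads, PCDHGA10 at 0.990% of 101 and 9.76% of 123 reads, and PCDHGB7 at 22.7% of 220 and 11.6% of 284 reads. The stretch ended on each side at a more methylated gene: PCDHGA9 before it had 60.5% of 43 and 82.5% of 40 reads, and PCDHGA11 after it had 34.6% of 26 and 82.4% of 119 reads. PCDHGA8, with 100% of 23 and 92.9% of 28 reads, and PCDHGA6, with 95.8% of 24 and 88.0% of 25 reads, were the highest. PCDHGB1, which has a peak, was at 27.5% of 120 and 28.6% of 112 reads.

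The A and B kinds of gamma gene alternate along the array, and their starts differed. The 6 measured B starts of 7 had a median of 25.7% ± 5.19 and means under 50%, against 71.5% ± 15.6 for the 5 measured A starts, of which 4 had means over 50%. The difference was -45.7 ± 10.4 points, and PCDHGA10 was the A gene on the other side. The unmeasured B gene, PCDHGB3, went against the split, with 87.5% of 16 and 86.4% of 22 reads. The split was looked at after the values had been seen. B starts were also read more deeply, with 2.49 and 3.12 reads per CpG in the 2 replicates, against 0.79 and 1.39 at A starts, and held a median of 40 CpGs, against 34; the part of depth in the difference was not tested. Downstream the kinds came together: the exon body was methylated at a median of 95.1% ± 0.376 in 4 measured B genes and 89.9% ± 6.12 in 4 measured A genes. Only 3 B and 3 A genes were measured in both windows, since PCDHGB3 and PCDHGA2 had a measured body alone.

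**Figure D2:**
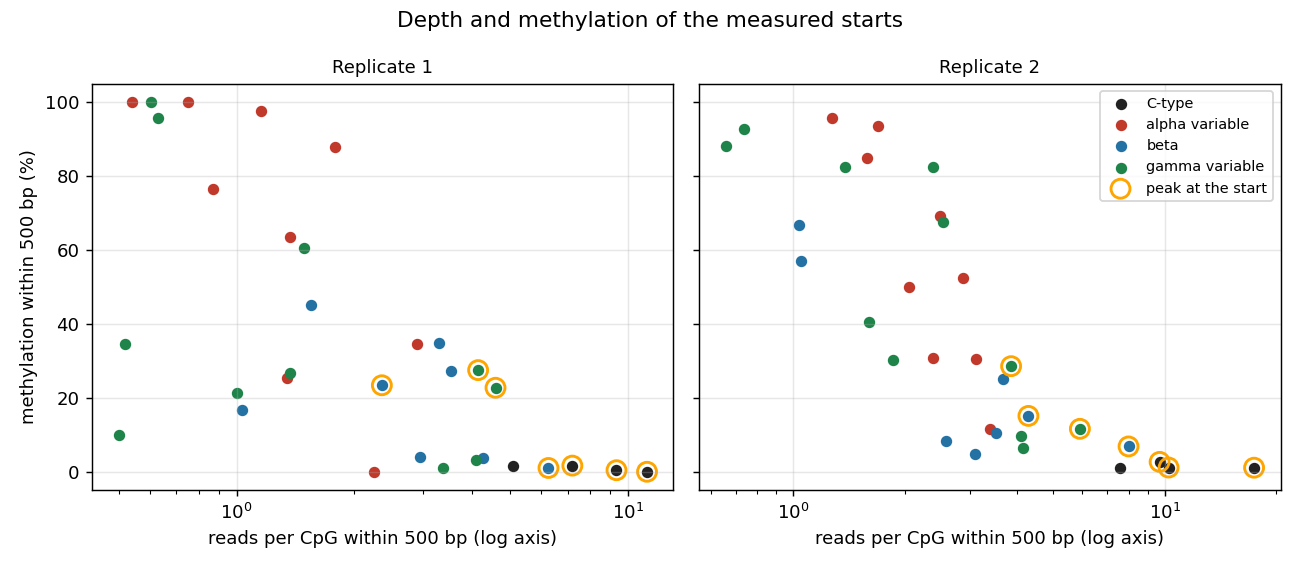
Methylation of the 32 measured starts against reads per CpG in the same window, one panel per replicate, with the horizontal axis on a log scale and members with a peak ringed. The 5 starts over 80% in both replicates sit toward the left of both panels, and the C-type starts at the lower right.

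Methylation at the starts went with depth, which in this assay also reflects access. The 10 starts under 20% in both replicates had a median of 4.67 and 5.86 reads per CpG in the 2 replicates, the 17 between the limits 1.48 and 2.49, and the 5 over 80% had 0.632 and 1.27. Both measures come from the same reads, so this is a description and carries no test. C-type starts had 7.92 and 11.2 reads per CpG, alpha 1.13 and 2.0, beta 1.99 and 2.62, and gamma 1.47 and 2.08, against 9.57 and 13.3 for all genes. Over the 32 measured starts the replicates differed by a median of 7.62 points. Starts with at least 50 reads in each replicate differed by a median of 3.81 points (18 starts), and the others by 12.4 points (14 starts). PCDHA2, PCDHB6, PCDHGB2, PCDHGB5 and PCDHGA11 differed by more than 30 points. The largest gap was 57.2 points at PCDHA2, with 87.9% of 66 reads in replicate 1 and 30.7% of 88 reads in replicate 2.

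A peak overlapped the start window of 7 of the 53 members, or 13.2%, against 60.5% of the 15107 genes with a known start. Of the 48 variable members 4, or 8.33%, had a peak, against 43.5% of 3771 other genes with CpG counts in their range. They were 3 of the 5 C-type genes (PCDHAC1, PCDHGC3 and PCDHGC4), 2 beta genes (PCDHB2 and PCDHB14) and 2 gamma genes (PCDHGB1 and PCDHGB7). CpGs inside the peak were methylated at 0.555% ± 0.785 at PCDHAC1, 0.993% ± 0.987 at PCDHGC3, 0.440% ± 0.622 at PCDHGC4 and 0.794% ± 1.12 at PCDHB2. The peaks of PCDHB14, PCDHGB7 and PCDHGB1 were methylated at 6.38% ± 2.29, 7.93% ± 0.333 and 18.5% ± 4.32. The signal, on the caller's own scale, was 1880 at PCDHAC1, 1084 at PCDHGC3 and 746 at PCDHGC4, all above the list's median of 541. It was 385 at PCDHB2, 334 at PCDHB14, 314 at PCDHGB7 and 244 at PCDHGB1, all under the median. Only the 3 C-type peaks remained when a q-value better than the list's median was asked for. PCDHAC2, PCDHA11, PCDHB1, PCDHB16, PCDHGB6 and PCDHGA10 lay under 20% in both replicates without a peak.

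**Figure D3:**
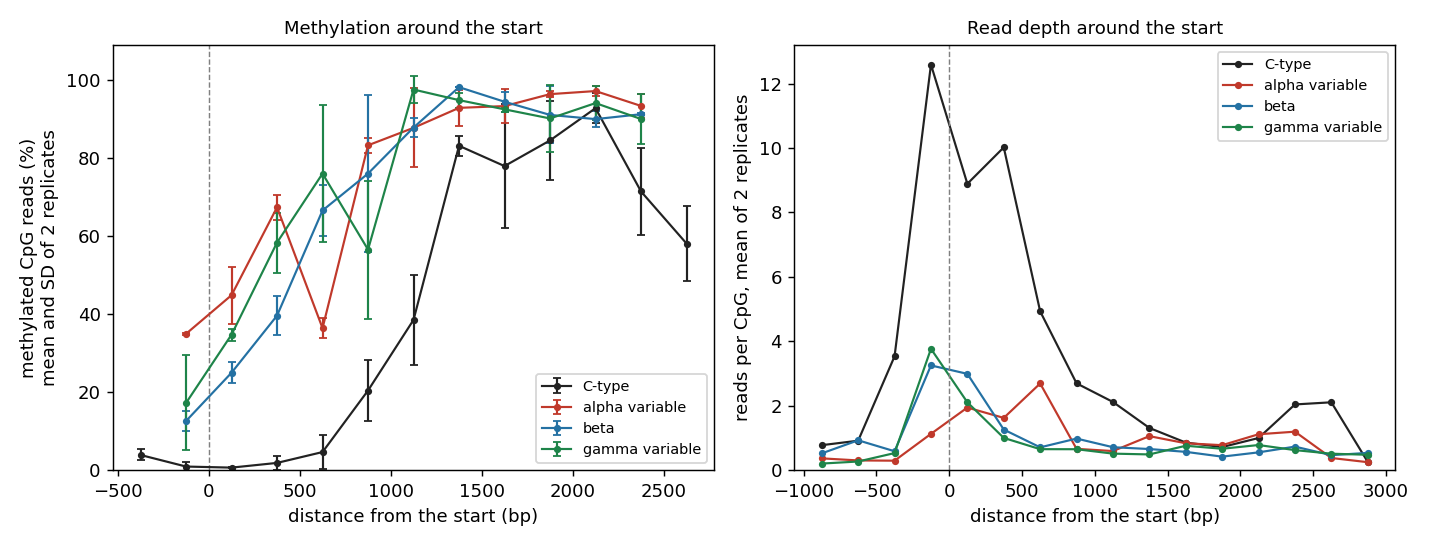
Methylation (left) and reads per CpG (right) in bins of 250 bp around the start, summed over the members of each class; points on the left are means of 2 replicates with their SD, for bins with at least 20 reads in each. The C-type profile is low up to about 750 bp, and the beta profile climbs from the start. The alpha profile dips once more after 500 bp, and the gamma profile after 750 bp.

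The exon bodies of most measured variable genes were highly methylated, with 20 of 29 over 80% in both replicates and 9 between 20% and 80% or on both sides of a limit. Their median was 90.9% ± 3.18 over 29 measured variable bodies, with 87.5% ± 7.32 in alpha, 91.4% ± 5.48 in gamma and 91.0% ± 2.65 in beta genes, against 16.7% ± 4.63 over all genes. The arrays, which were apart at the start, lay close here, though starts and bodies were measured in partly different genes. Both windows were measured in 8 alpha, 5 beta and 6 gamma genes. Alpha minus beta was -3.44 ± 9.96 points and gamma minus beta 0.392 ± 8.13 points, both within the SD, and alpha minus gamma was -3.83 ± 1.83 points. The 4 measured C-type bodies had a median of 34.7% ± 6.57, which was -56.2 ± 3.40 points from the variable ones. PCDHAC1 had 14.7% and 9.37% in its body, PCDHAC2 17.7% and 27.2%, and PCDHGC3 42.4% and 51.5%, whereas PCDHGC5 had 86.4% and 90.8%. The body of PCDHGC4, with too few reads to be measured, stood at 64.7% of 17 and 73.1% of 104 reads. The C-type bodies were thus low mainly in PCDHAC1 and PCDHAC2. By distance, the sum over the C-type genes was methylated at 4.66% ± 4.27 between 500 and 749 bp after the start. Of the 366 and 482 reads there, PCDHAC1 gave 190 and 222 and PCDHAC2 161 and 155. In replicate 2 PCDHGC3 stood there at 22.2% of 81 reads, PCDHGC4 at 50% of 14 and PCDHGC5 at 100% of 10. The sum stood at 20.4% ± 7.71 in the next 250 bp and 38.5% ± 11.5 in the 250 bp after that. It was at 83.1% ± 2.60 between 1250 and 1499 bp. PCDHGA10 was the variable gene with the lowest body, at 46.1% of 89 and 40.3% of 186 reads.

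The body was compared with the start in each gene by Fisher's exact test on methylated and unmethylated reads, two-sided, with Benjamini-Hochberg adjustment over 8515 genes. A gene was called when both replicates passed 0.05 in the same direction. The body was higher in 15 of the 22 members tested and lower in 0. No member was lower in both replicates at an unadjusted p under 0.05 either. Over all genes 65.5% were called higher, so the share of members, 68.2%, was near that of all genes. The members called higher were PCDHAC1, PCDHAC2 and PCDHGC3 of 3 C-type genes tested, 5 of 5 beta, 4 of 6 gamma and 3 of 8 alpha genes. The size was larger than elsewhere: the median of body minus start was 37.0 ± 3.19 points over the members tested and 11.8 ± 3.51 points over all genes tested. Of 1534 other genes with the CpG counts of the variable members, 597 were called higher and 262 lower, with a median of 2.80 ± 0.543 points. Of the 19 variable members tested, 12 were called higher and 0 lower, with a median of 40.3 ± 6.41 points. PCDHB16 had 88.2% of 93 and 83.8% of 136 reads methylated in its body, against 3.70% and 10.4% at its start (Fisher's exact test, adjusted p = 3.76e-32 and 1.96e-24). PCDHA11 had 72.0% of 100 and 88.4% of 310 reads, against 0% and 11.6% (Fisher's exact test, adjusted p = 2.94e-25 and 1.11e-49). Of the 7 members not called, PCDHA3, PCDHA6, PCDHGA6 and PCDHGA8 were over 80% already at the start. The p-values are too small, because a read that spans several CpGs is counted at each. With replicate 2 alone 32 of 49 members were called, beside 72.9% of all genes, and with the body cut at 1500 bp 7 of 13 members, beside 42.1% of all genes.

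**Figure D4:**
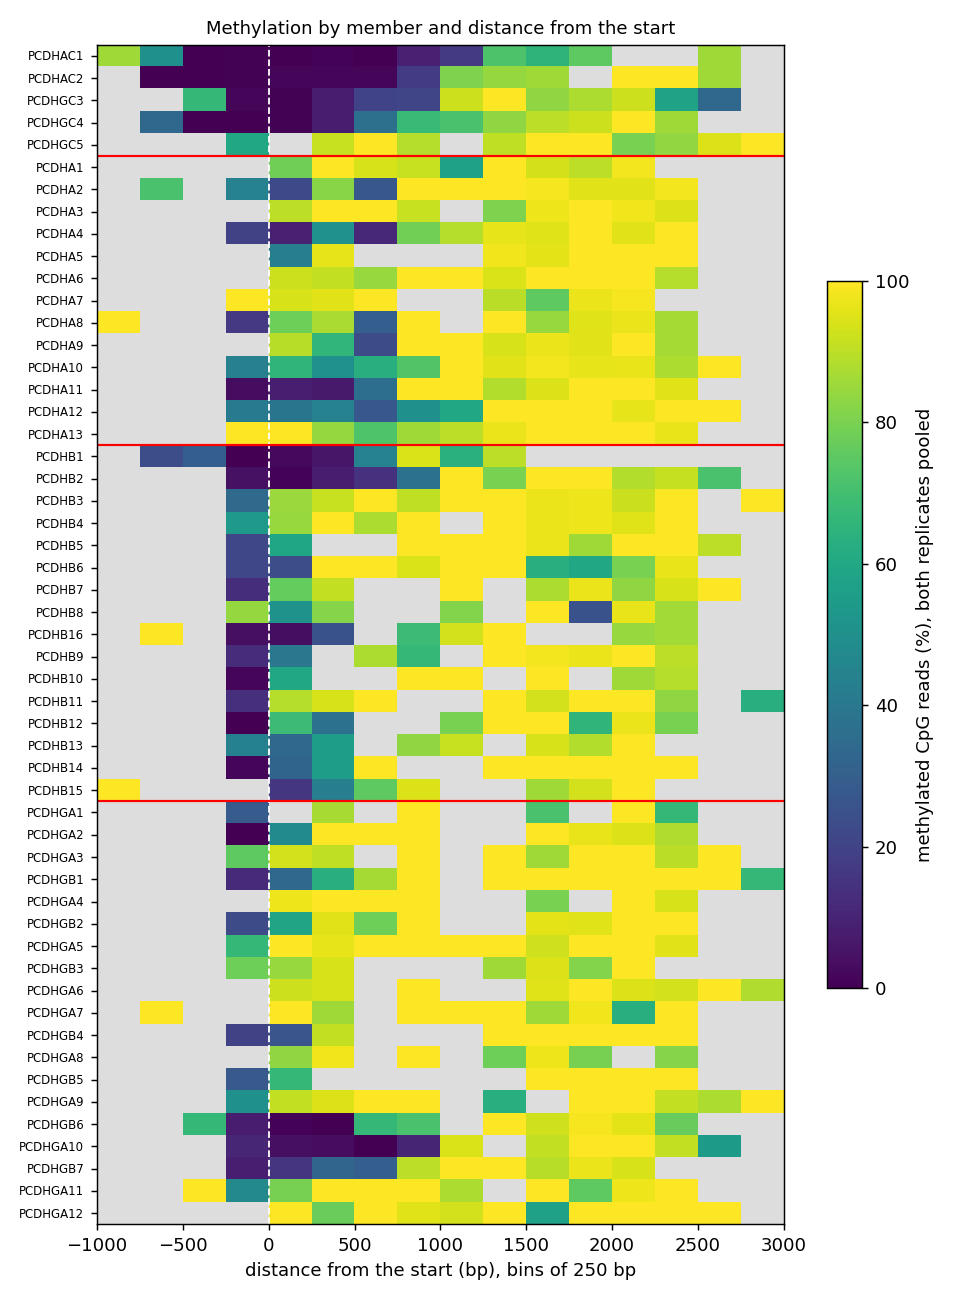
Methylation of each member in bins of 250 bp around the start, both replicates pooled, with members as rows by class (red lines part C-type, alpha, beta and gamma) and grey where fewer than 5 reads fell in a bin. Dark cells at the start reach furthest in PCDHAC1, PCDHAC2 and PCDHGA10, and alpha rows such as PCDHA4 and PCDHA9 show dark cells between 500 and 749 bp.

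Inside several of the alpha first exons methylation was low a second time. Summed over the 13 variable alpha genes it was 34.9% ± 0.216 in the 250 bp before the start, 67.3% ± 3.23 between 250 and 499 bp after it, 36.4% ± 2.59 between 500 and 749 bp, and 83.2% ± 1.98 between 750 and 999 bp. In bins of 50 bp the lowest value was 23.3% ± 0.00390, between 550 and 599 bp, on 103 and 176 reads. Depth moved with it: the stretch between 500 and 749 bp had 2.03 and 3.36 reads per CpG, against 1.12 and 2.13 in the 250 bp before it and 0.375 and 0.952 in the 250 bp after it. Beta and gamma genes stood at 66.5% ± 6.54 and 76.0% ± 17.5 in the same stretch, on 21 and 104 reads and 43 and 140 reads. Only 1 beta and 2 gamma genes had at least 20 reads there over both replicates. Of these, PCDHB1, at 44.4%, and PCDHGA10, at 0%, were under 50%. Gamma genes fell to 56.5% ± 17.7 between 750 and 999 bp, where PCDHGA10 gave 43 of 75 and 82 of 242 reads. The stretch between 500 and 749 bp was picked from the profile, so no test is given.

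Of the 9 alpha genes with at least 20 reads there over both replicates, 6 were under 50%: PCDHA2, PCDHA4, PCDHA8, PCDHA9, PCDHA11 and PCDHA12. The alpha genes that fell short of this limit were high in their few reads, pooled over both replicates. PCDHA1 stood at 93.8%, PCDHA3 at 100%, PCDHA5 at 75% and PCDHA7 at 100%, so the limit leaves out genes without a low stretch. PCDHA4 was methylated at 7.04% of 71 and 14.0% of 143 reads between 500 and 749 bp, against 54.4% of 57 and 46.3% of 54 reads between 250 and 499 bp. PCDHA9 was at 22% of 41 and 23.8% of 80 reads, against 70.4% of 27 and 64.0% of 75 reads. In both genes the stretch lay lower by far more than the replicates differed. PCDHA11 ran the other way, with 57.1% of 28 and 22.7% of 44 reads, against 0% of 33 and 11.1% of 63 reads. PCDHA13, with 76.1% of 46 and 67.6% of 37 reads, and PCDHA6, with 93.3% of 15 and 76.5% of 17 reads, were high in the stretch. PCDHA4 gave the most reads, and without it the sum over the other 12 genes was 46.3% ± 3.57. No sequence or CTCF binding of these exons was analysed here.

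The CGCT element was then located in the RefSeq promoter sequences, which cover 47 of the 53 members. A box was taken as the first match, 5′ to 3′ on the gene's strand, to GNCGCT between 100 bp before and 10 bp after the start. It was found in 44 of 47 members, all but PCDHA9, PCDHAC2 and PCDHGB7, and in 15.7% of 15054 other genes. Its CpG lay between 95 bp before and 3 bp after the start, with a median of 58 bp before. The windows below give 60 bases each from the plus strand of chromosome 5 with the letters CGCT in capitals, for genes with unmethylated, mixed and methylated starts; they run over chr5:140834162-140834221 (PCDHA7), chr5:140841120-140841179 (PCDHA8), chr5:140868873-140868932 (PCDHA11), chr5:140926210-140926269 (PCDHAC1), chr5:141094534-141094593 (PCDHB2), chr5:141100383-141100442 (PCDHB3), chr5:141192289-141192348 (PCDHB10), chr5:141182300-141182359 (PCDHB16), chr5:141373825-141373884 (PCDHGA6), chr5:141412921-141412980 (PCDHGA10), chr5:141407914-141407973 (PCDHGB6), chr5:141475870-141475929 (PCDHGC3) and chr5:141484942-141485001 (PCDHGC4).
PCDHGC3: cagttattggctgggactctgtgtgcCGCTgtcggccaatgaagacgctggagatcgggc
PCDHGC4: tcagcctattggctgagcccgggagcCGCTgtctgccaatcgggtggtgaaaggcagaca
PCDHAC1: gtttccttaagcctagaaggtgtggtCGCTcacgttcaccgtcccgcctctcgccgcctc
PCDHA11: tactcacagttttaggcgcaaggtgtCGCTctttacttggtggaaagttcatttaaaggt
PCDHA8: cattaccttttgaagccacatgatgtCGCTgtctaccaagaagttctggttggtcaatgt
PCDHA7: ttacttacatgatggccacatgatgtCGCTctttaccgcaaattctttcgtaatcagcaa
PCDHB2: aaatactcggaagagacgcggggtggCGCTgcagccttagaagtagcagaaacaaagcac
PCDHB16: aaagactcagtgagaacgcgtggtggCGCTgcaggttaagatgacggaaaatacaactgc
PCDHB10: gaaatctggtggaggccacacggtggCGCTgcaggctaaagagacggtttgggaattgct
PCDHB3: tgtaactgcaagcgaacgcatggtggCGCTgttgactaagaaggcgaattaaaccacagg
PCDHGB6: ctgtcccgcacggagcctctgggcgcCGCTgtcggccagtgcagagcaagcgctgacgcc
PCDHGA10: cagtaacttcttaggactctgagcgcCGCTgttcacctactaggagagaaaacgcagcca
PCDHGA6: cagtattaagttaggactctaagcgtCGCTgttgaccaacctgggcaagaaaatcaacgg

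The letters around the core differed by array. On either strand of the 300 bases of each promoter, TGTCGCT was found in 10 of 11 alpha, 1 of 14 beta and 3 of 18 gamma genes, and in 2.68% of other promoters. GTGGCGCT was found in 13 of 14 beta genes and in no other member, against 1.70% of other promoters. GCCGCTGT was found in 9 of 18 gamma genes and in 2 of 4 C-type genes with a sequence, against 2.40% of other promoters. These motifs overlap the core CGCT, which 46 of 47 members and 84.5% of other promoters held, so the core alone is common. The low starts of PCDHB2 and PCDHB16 and the mixed ones of PCDHB10 and PCDHB3 had the same GTGGCGCT.

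The CpG of the box was less methylated than the rest of the start window. Over the 41 variable members with a box, box CpGs were methylated at 7.48% of 107 reads in replicate 1 and 18.3% of 169 reads in replicate 2. The other CpGs of the same windows stood at 33.7% of 1826 and 42.2% of 2600 reads. The difference was -25.0 ± 1.64 points and larger than the SD in each array, with -37.9 ± 2.87 in alpha, -21.2 ± 7.75 in gamma and -17.5 ± 4.4 in beta genes. The alpha boxes had 2 of 16 and 5 of 28 reads methylated. PCDHA11, a low start, gave 7 and 6 of these box reads, but only 67 of 450 and 106 of 735 reads in the rest of the alpha windows. The part of this in the alpha difference was not tested. The difference over all 41 members remained at -28.0 ± 2.45 without the members with a peak. By distance, methylation was 12.9% ± 7.68 at the box CpG itself, 9.88% ± 4.96 at 1 to 25 bp and 16.4% ± 11.7 at 26 to 50 bp. It was 37.4% ± 10.9 at 51 to 100 bp, 24.7% ± 4.59 at 101 to 200 bp and 56.2% ± 5.12 at 301 to 500 bp. The CpGs at 1 to 25 bp were below the box CpG in each replicate, at 6.37% and 13.4%. The low value was therefore not particular to the box CpG. Reads per CpG at the box were 2.61 and 4.12, against 0.916 and 1.49 at 301 to 500 bp; the part of depth in the difference was not tested.

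Single boxes rest on few reads. Of the 37 variable members with any read at the box CpG, 20 had no methylated one, and of the 22 with at least 5 reads, 13 had none. PCDHB10 had 0 methylated of 7 and 9 reads, with 26.1% in the rest of its window. PCDHB7 had 0 of 5 and 3 reads, with 60.3% in the rest, and PCDHA8 0 of 3 and 5 reads, with 60.1%. PCDHB3 had 0 of 1 and 6 reads, with 59.7%. These genes had mixed windows with an unmethylated box in every read seen. Over the 37 members the box was below the rest of its window in 29 and above it in 8. PCDHGA9 had 1 of 4 and 5 of 5 reads methylated at the box and 72.1% in the rest, and PCDHGA10, with 4.11% in the rest, had 0 of 8 and 4 of 11. Among members whose windows had at least 20 reads in each replicate and a mean outside the box over 20%, the box was below the rest in 10 of 13, against 37 of 81 other genes with a box under the same limits. In the 6 members with over 50% outside the box in both replicates, the box had 6 and 9 reads and the difference was -10.0 ± 32.7 points, within its SD; 53 other genes of that kind had -18.7 ± 1.13 points. At the most methylated starts the box was therefore too thinly read to be placed.

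**Figure D5:**
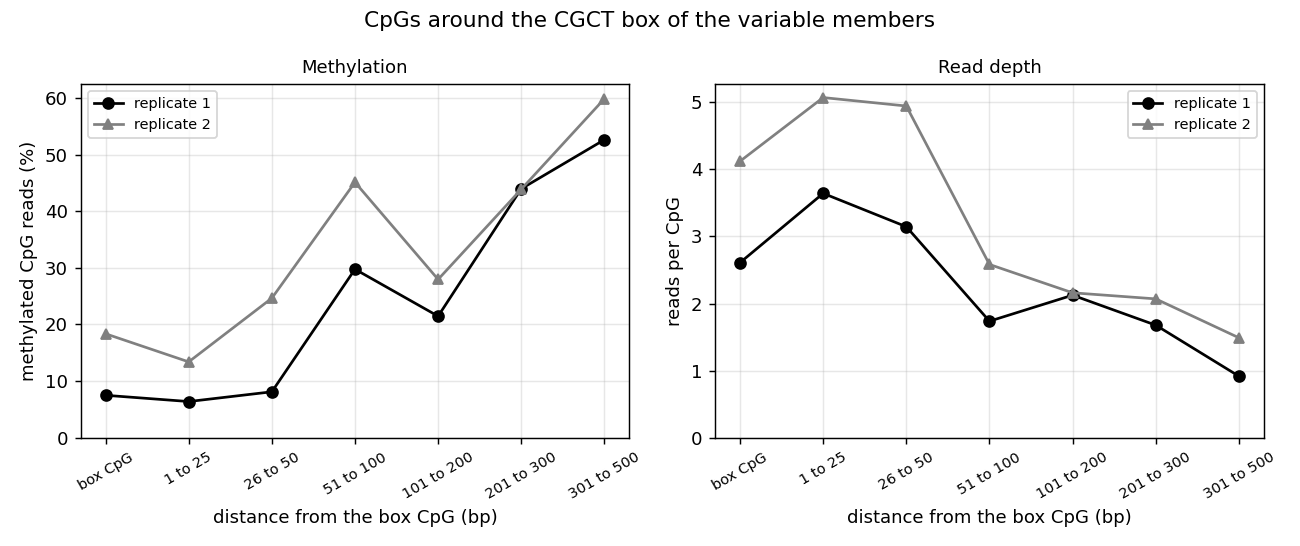
Methylation (left) and reads per CpG (right) of the CpGs of 41 variable members by distance from the CpG of the CGCT box, one line per replicate, with both sides of the box pooled. Both replicates are under 25% within 50 bp and over 50% beyond 300 bp, while depth falls over the same distance.

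Between the first alpha start and the end of the gamma array lay 18 peaks, of which 7 were those at member starts. The alpha array held 5, of which 1 was at a start. The strongest of the 18 (chr5:141001921-141002639, signal 2231) lay past PCDHAC2 within the alpha array and was methylated at 0.764% ± 0.613. Between the end of the alpha array and PCDHB1 were 2 more, at chr5:141040085-141040397, methylated at 2.02% ± 1.75, and at chr5:141040838-141041454, at 0.670% ± 0.947. Enhancers are known on that side of the alpha array, but neither the files nor the gene table mark them. The beta array held 2 peaks, both at starts. The gamma array held 7, of which 4 were at starts. Of the others, chr5:141455425-141455754, between PCDHGA12 and PCDHGC3, was methylated at 46.7% ± 6.87, chr5:141496096-141496339 at 14.3% ± 1.92, and chr5:141512394-141512773, near the end of the array, at 3.63% ± 1.79.

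Related and neighbouring genes were set beside the members. Of 8 non-clustered protocadherins with a known start, 7 were measured, all under 20% with a median of 1.01% and all with a peak. PCDH12, which had too few reads, stood at 81.2% of 16 and 87.5% of 32 reads. The 6 genes near the cluster with a known start, TAF7, ZMAT2, HARS1, DIAPH1, RELL2 and HDAC3, were at 0.512% to 5.69% and all had a peak. The methylated starts therefore did not extend to these 6 genes. SLC25A2, also listed as a neighbour, had no known start. TAF7, a subunit of the general transcription factor TFIID, lies between the beta and gamma arrays and stood at 1.07% ± 1.18. Genes that encode regulators of the cluster, of chromatin loops or of DNA methylation included CTCF, SMC3, SMCHD1, DNMT3B and TET1. Of all such genes listed, 15 of 15 with a known start were under 20% and 12 had a peak. Among all genes 90.7% of the measured starts were under 20% in both replicates, and 60.5% of known starts had a peak.

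Members resemble one another, which bears on where short reads can be placed. The longest exact run shared between the promoters of a member and another member had a median of 18 bp, and it was 78 bp between PCDHGB4 and PCDHGB5 and 55 bp between PCDHB8 and PCDHB13. These 4 of 47 members had runs of 50 bp or more. Values of those 4 are less certain, since the mapper and its treatment of reads with several matches are not named in the labels or notes.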

How the data were processed

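ATAC-Me libraries of H9 cells were analysed, 2 replicates of 1 group. Per the labels and the values, the authors deposited 1 table per replicate, headerless, which lists for each CpG the methylated fraction and the count of reads over it, and for the group a Genrich peak list with a score, a signal and −log10 of the q-value. Per the submitters' processing notes Trim Galore, Genrich and the build hg38 (GRCh38) were used; the mapper, the methylation caller, duplicate removal and how replicates were joined for peaks are not named in the labels or notes used here. A cytosine that fails to convert reads as methylated.

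Methylated reads were computed as fraction times reads, rounded; at least 99.9986% of products were whole within 0.001. All listed CpGs with reads entered. Reads in a window are summed over its CpGs, so fragments are fewer than reads, Wilson intervals and limits for a count of 0 (3 reads) cover counting error only, and Fisher p-values are too small. Members start at the lower coordinate of RefSeq GRCh38.p14; the start and strand of other genes came from RefSeq promoter entries (15101 genes). All 498 CpGs in the members' promoter sequences were listed in the files. Fisher's exact test was run on all 8515 genes with at least 20 reads in both windows. It was tried on simulated data with independent reads, which cannot show the effect of reads counted at several CpGs. Classes were compared by medians beside the SD between replicates. Python 3.11.15, numpy 2.4.6, pandas 2.3.3 and scipy 1.17.1 were used.

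The members, lists and tests were chosen with earlier results of these data known. Any member could be named; full values were given for C-type members, members with a peak and the 3 lowest and 3 highest starts of each array, and other genes came from fixed lists. The gamma A and B split, the CGCT box, and the stretch between 500 and 749 bp were chosen after the values were seen. Alternatives covered window sizes, read minimums, weighting, gene starts, peak limits and each replicate left out.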

Additional observations from a re-analysis of the deposited data

How the results depend on the processing

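The C-type genes stayed below the variable genes, and beta below gamma and alpha starts, under every alternative run. The levels moved with depth and window. Gamma medians were below alpha medians too, but within 250 bp they lay within the SD of each other, at 21.5% ± 9.67 and 23.6% ± 12.8. With replicate 2 alone they were nearly level, at 82.4% and 82.6%. With at least 10 reads the start medians were 50.5% in gamma and 27.1% in beta genes, C-type minus variable was -50.4 points, 8 starts were over 80%, and the beta exon stood at 78.9%. With at least 50 reads the starts were 32.6% in alpha, 17.2% in gamma and 6.25% in beta genes, the difference was -20.2 points and 0 starts were over 80%; the exon was 75.5% in gamma and 58.2% in beta genes, and its difference -63.1 points. Within 250 bp the starts were 0.477% in C-type, 23.6% in alpha, 21.5% in gamma and 8.50% in beta genes, with -13.6 points and 0 starts over 80%. Within 1000 bp they were 3.48% in C-type, 55.3% in gamma and 35.2% in beta genes, with -44.6 points. With CpGs weighted equally the starts were 1.95% in C-type, 45.6% in gamma and 23.8% in beta genes, with -39.6 points, and the exon was 32.1% in C-type, 87.8% in alpha and 85.5% in beta genes, with -56.5 points. With the other RefSeq start of 6 members, the C-type start was 1.16% and exon 24.8%, with -63.2 points over the exon. Without members with a peak, C-type starts were 1.31% and gamma starts 47.2%, with -41.6 points and 6 starts under 20%. The exon taken from 500 to 2500 bp was 34.7% in C-type, 87.5% in alpha and 91.0% in beta genes, with -56.2 points; taken over 1500 bp it was 8.28% in C-type, 71.0% in alpha, 82.5% in gamma and 62.7% in beta genes, with -61.5 points. With the body cut at 1500 bp 7 of 13 members tested were called higher, beside 42.1% of all genes, and with a q-value better than the median 3 had a peak. The box difference was -28.0 points without members with a peak and -22.3 points with 26 members weighted equally. The alpha stretch stood at 46.3% without PCDHA4 and at 47.7% with 10 members weighted equally. Why the values moved was not tested, except that a higher read minimum leaves fewer, deeper starts.

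Leaving out each replicate gave start medians of 0.991% to 1.15% in C-type, 76.5% to 82.6% in alpha, 27.1% to 82.4% in gamma and 23.4% to 34.6% in beta genes, and C-type minus variable of -56.3 to -30.0 points. It gave 12 to 13 starts under 20% and 7 to 16 over 80%. Exon medians were 10.6% to 21.5% in C-type, 79.9% to 83.5% in alpha, 84.5% to 91.5% in gamma and 79.7% to 84.7% in beta genes, with -71.6 to -69.4 points. The body was called higher in 16 of 23 members tested without replicate 2, beside 69.1% of all genes, and in 32 of 49 without replicate 1, beside 72.9%. The box difference was -26.2 to -23.9 points and the alpha stretch was 34.6% to 38.2%. No paired analysis was possible because there was 1 group. Depth limits the variable starts: 21 of 53 members could not be measured, and dropping CpGs with the label CpGx in the files moved no value by more than its SD.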

Other observations

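Over whole arrays, counting every CpG between the first start and the array's end, replicate 2 was more methylated than replicate 1 in all 3. The alpha array stood at 33.8% of 4169 reads in replicate 1 and 54.0% of 8433 reads in replicate 2, the beta array at 53.9% of 1509 and 74.4% of 3864 reads, and the gamma array at 38.2% of 3437 and 58.0% of 7197 reads. Reads per CpG in the same order of arrays were 1.03, 0.423 and 0.799 in replicate 1 and 2.08, 1.08 and 1.67 in replicate 2.

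Several members that fell short of the read minimum were highly methylated in the reads they had. PCDHGA4 was at 98.3% of 58 and 100% of 4 reads, PCDHGA5 at 77.8% of 9 and 96.8% of 63 reads, and PCDHA13 at 100% of 14 and 85.0% of 40 reads. PCDHA8 was split, with 23.1% of 13 and 83.3% of 66 reads. PCDHGA10 stayed low far into its exon, with 0% of 4 and 35 reads between 500 and 749 bp and 4.65% of 43 and 13.4% of 82 reads between 750 and 999 bp.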
